A study of Mus musculus with 6 samples.

Results

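The glucocorticoid pathway was described in mouse pancreatic islets through 10 genes of the 55536 in the count table. They are the receptor genes Nr3c1 and Nr3c2, the hormone-activating enzyme gene Hsd11b1, and 7 genes that glucocorticoids are known to induce, Zbtb16, Fkbp5, Tsc22d3, Sgk1, Per1, Klf9 and Ddit4. The 10 genes were selected by name from a pathway whose difference between the same libraries was already known, so their levels and fold changes are given as a description and without a test. The receptors and the targets whose groups overlapped are described beside those that differed.

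The study asked how the transcription factor KLF4 acts in alpha cells, the glucagon-producing cells of the islet. RNA with poly(A) tails was sequenced from whole isolated islets of C57B1/6J mice, 3 libraries per genotype. Control mice were Klf4+/+;Gcg-iCre, with intact Klf4 alleles, and knockout mice were Klf4fl/fl;Gcg-iCre, with floxed ones. All 6 libraries therefore carried the Gcg-iCre driver, in which Cre recombinase is made from the glucagon gene and acts in alpha cells, while the sequenced RNA also came from beta, delta and non-endocrine cells. Age and sex are not in the labels, nor is whether each library came from a separate animal, so p-values measure the spread between these libraries, which may be technical. Because the tissue was measured in bulk, fewer cells of a type and less RNA per cell cannot be told apart.

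Glucocorticoids are adrenal steroid hormones, corticosterone in the mouse, that rise with stress and with the daily rhythm and raise blood glucose. The glucocorticoid receptor waits in the cytoplasm in a complex with the chaperone HSP90, and hormone binding sends it into the nucleus, where it binds DNA as a dimer and activates or represses genes. Among the genes it commonly induces across tissues are Fkbp5, Zbtb16, Tsc22d3 and Per1, and in islets glucocorticoids are known to alter hormone secretion.

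The libraries held 101277200 to 110243918 counts, and all 10 genes passed the filter on low counts, the rarest with 1688 counts over the 6 libraries. In CPM, the count as a share of its library's total, a floor of 3 counts was 0.0272 to 0.0296, which covers counting error only. The hormone transcripts marked the tissue: Ins2 took 11.6% to 12.7% of all counts and Gcg 2.74% to 5.36%. Klf4 ran from 2015 to 3148 normalized counts in the controls and from 2277 to 2540 in the knockouts, which overlap; the labels do not say which exons the floxed allele removes, so this gene-level count does not check the deletion. Xist, the RNA of the inactive X chromosome, lay between 77938 and 108105 normalized counts in the controls and between 12.4 and 30.2 in the knockouts, and the Y-linked Ddx3y was at 0 in every control and between 5599 and 6265 in the knockouts. In every comparison that follows, effects of sex cannot be told apart from those of genotype. On the first principal component, with 54% of the variance, the controls lay between -25.8 and -24.3 and knockout replicates 1 to 3 at 62.5, 20.2 and -7. Replicate 1, the farthest from the controls, held 51331 normalized counts of the hepatocyte gene Alb, against 103 to 213 in the controls, 1743 in knockout replicate 2 and 122 in knockout replicate 3. Of 6 fibroblast genes 5 rose past the DESeq2 threshold, with a summed level of 427 to 586 CPM in the controls and 852 to 934 CPM in the knockouts. For 6 acinar genes the sums were 3776 to 7719 CPM and 9920 to 13705 CPM. None of the 6 was past the threshold in DESeq2 or edgeR. Of these, 5 had an unadjusted DESeq2 p under 0.05, beside 2269 of the 25119 genes in the fit. For 7 alpha-cell genes the sums, made up mostly of Gcg, were 38488 to 56548 CPM and 29536 to 35531 CPM. Of the alpha-cell genes Gcg, Irx2 and Ttr fell and Tm4sf4 rose past the DESeq2 threshold. Sums of smaller lists ran from 50 to 70.6 CPM in the controls and 72 to 76.4 CPM in the knockouts for 5 duct genes, of which Muc1 rose, and from 14.8 to 17.6 and 20.7 to 24.8 CPM for 5 adipocyte genes, of which Fabp4 rose while Adipoq, Lep and Plin1 were at 0 in at least 1 library. Of 5 macrophage genes C1qb and Cd68 rose while C1qa was at -0.27 on the log2 scale and not past the threshold, with sums that overlapped, and for 5 lymphocyte genes the sums were 15.2 to 16.8 and 12.8 to 13.6 CPM. No gene of the fibroblast, acinar or alpha lists was at 0 in any library. The part of these markers in the results below was not tested. Where a marker's value is given beside a gene, it is a description only. The labels name no batch or date.

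Across the pathway genes, 7 had a positive and 3 a negative log2 fold change of knockout against control, with a median of 0.35 beside -0.01 over all 17797 genes given an adjusted p. Zbtb16, Fkbp5, Ddit4 and Hsd11b1 were past the DESeq2 threshold of an adjusted p of 0.05, and all 4 were higher. The background was 2.19% of all genes called in either direction and 1.53% called higher. The same 4 genes had every knockout library above every control library, which held for 9.06% of all genes, and 0 of the 10 had every knockout library below the controls, which held for 8.23%. In edgeR's quasi-likelihood test, which called 0.115% of all genes, 1 of the 10 was past the threshold, Zbtb16, and Fkbp5, Ddit4 and Hsd11b1 were not. Nothing is read from these counts, because the genes were picked with this comparison known. With counts scaled to the library totals in place of size factors, all 10 kept the same sign, and the median over all genes moved by 0.01 (log2). The plot of normalized counts by library shows the separation gene by gene.

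**Figure D1:**
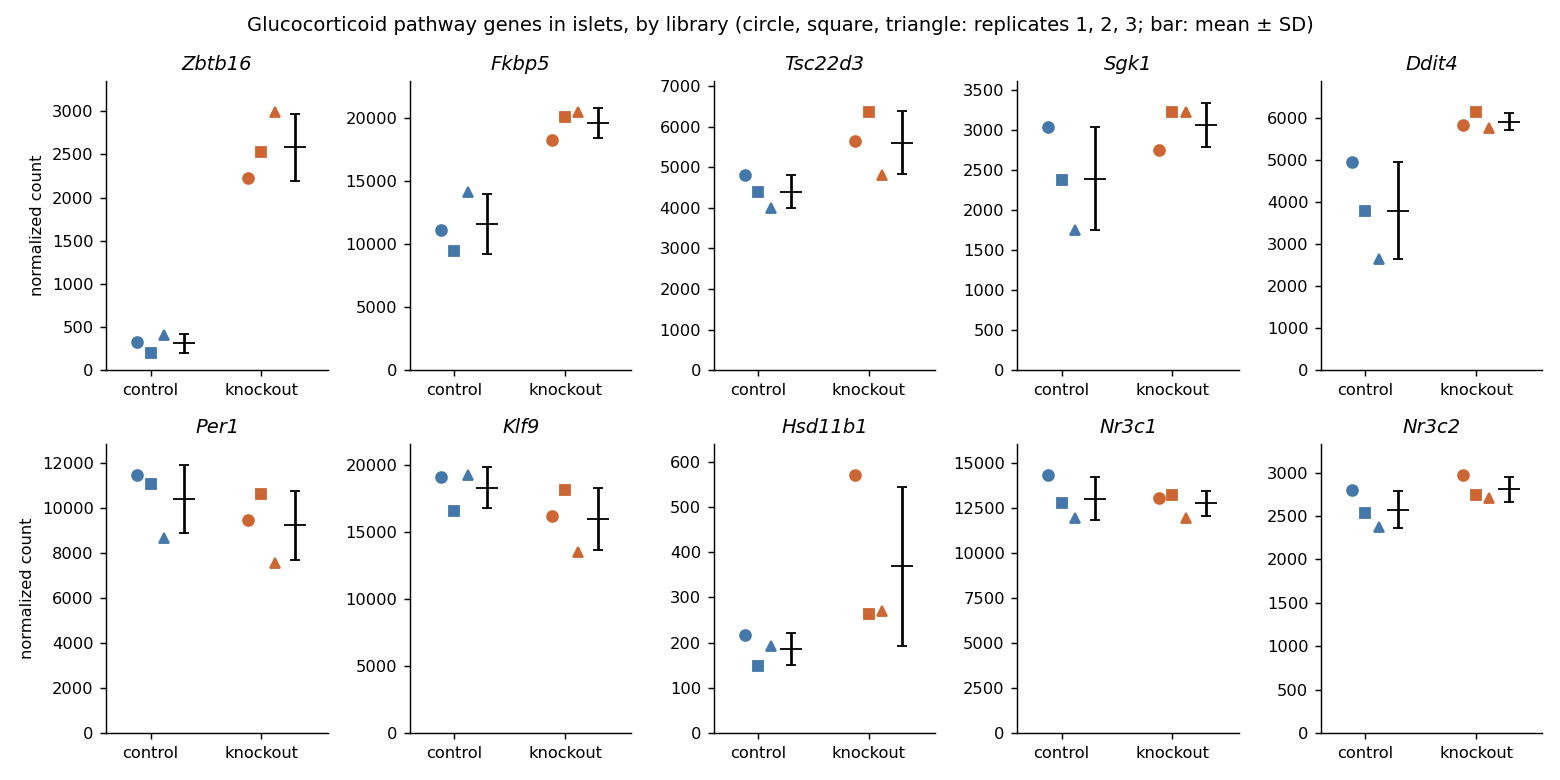
Normalized counts of the 10 glucocorticoid pathway genes, 1 panel per gene, with a point for each of the 3 control and 3 knockout libraries and a bar at the mean of the group. The knockout points lie above all control points for Zbtb16, Fkbp5, Ddit4 and Hsd11b1, and the groups overlap in the other 6 panels.

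Nr3c1 encodes the glucocorticoid receptor itself and spans 39410545 to 39519421 of chromosome 18 (GRCm38). The controls, in replicate order, held 14341, 12756 and 11961 normalized counts (counts divided by the library's size factor), and the knockouts held 13060, 13227 and 11956. The groups overlapped throughout, with control replicate 1 the highest of all 6 libraries. The means were 13019 ± 1212 and 12748 ± 691 (SD, n = 3 each), and the log2 fold change was -0.03 ± 0.09 (SE). Its sign turned when control replicate 1 was left out, to 0.044.

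Nr3c2 encodes the mineralocorticoid receptor, which binds corticosterone with higher affinity than the glucocorticoid receptor does. The gene lies at 76899442 to 77245012 of chromosome 8, where an antisense exon of Gm10649 overlaps it, which leaves its count uncertain because the strand setting is not known. Control libraries held 2804, 2537 and 2378 normalized counts, and knockout libraries 2976, 2740 and 2703. The 2 lowest libraries were controls, but control replicate 1 exceeded knockout replicates 2 and 3. The log2 fold change was 0.13 ± 0.09 (SE). Per kilobase of exon model, Nr3c1 stood above Nr3c2 by a ratio of 4.24 to 4.31 in the controls and of 3.7 to 4.07 in the knockouts, so the glucocorticoid receptor was the more abundant transcript in every library.

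Hsd11b1 encodes the enzyme that regenerates active corticosterone from its inert keto form inside cells, and so raises the hormone that reaches the receptor. It lies at 193221634 to 193264075 of chromosome 1. The 3 controls gave 216, 148 and 193 normalized counts, and knockout replicates 1 to 3 gave 572, 264 and 271. Every knockout library exceeded every control, and knockout replicate 1 stood well above the other 2 knockouts. The means were 186 ± 34.8 and 369 ± 176 (SD, n = 3), a ratio of 1.99, and the log2 fold change was 0.99 ± 0.30 (SE). Without knockout replicate 1 it was 0.53, and it was past the threshold in 1 of the 6 fits that left out a library, the one without knockout replicate 2. Liver is rich in this enzyme, and the hepatocyte gene Alb was also highest in knockout replicate 1. In knockout replicate 3, where Alb stood at 122, within the control range of 103 to 213, Hsd11b1 was at 271, above the highest control at 216. These are values of single libraries set side by side, and the part of hepatocyte RNA in the difference was not tested.

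Zbtb16, also called PLZF, is a zinc finger transcription repressor that glucocorticoids induce strongly in many cell types. The gene covers 48654297 to 48836222 of chromosome 9 on the minus strand. Its 3 control libraries held 330.3, 194 and 405 normalized counts, and its 3 knockout libraries held 2222, 2529 and 2991. The groups were far apart: the lowest knockout library stood 5.48 times above the highest control. On average Zbtb16 went from 309.8 ± 107 to 2581 ± 387 (SD, n = 3), a ratio of 8.33 and a log2 fold change of 3.06 ± 0.21 (SE). It had the largest difference of the 10 genes and stayed between 2.81 and 3.30 when any single library was left out.

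Fkbp5 encodes a co-chaperone that joins the HSP90 complex, lowers the hormone affinity of the receptor and so acts as its feedback inhibitor. It spans 28399094 to 28517527 of chromosome 17. Normalized counts were 11111, 9427 and 14111 in the controls and 18216, 20020 and 20447 in the knockouts. The knockout libraries lay close together, with a coefficient of variation of 6.05% against 20.5% in the controls, and the lowest of them was 1.29 times the highest control. Means of 11549 ± 2373 and 19561 ± 1184 (SD, n = 3) gave a ratio of 1.69 and a log2 fold change of 0.76 ± 0.13 (SE). Leaving out single libraries moved it between 0.63 and 0.93.

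Ddit4, or REDD1, is an inhibitor of the growth kinase mTORC1 that responds to glucocorticoids and also to cellular stress. It is a short gene at 59949669 to 59951834 of chromosome 10. Control replicates 1 to 3 held 4955, 3779 and 2648 normalized counts, and the knockouts held 5841, 6145 and 5761. The controls were widely spread, with a coefficient of variation of 30.4%, against 3.42% in the knockouts. The ratio of the means, 5915 ± 202 over 3794 ± 1154 (SD, n = 3), was 1.56, and the log2 fold change was 0.64 ± 0.17 (SE). Without control replicate 3, the lowest, it was 0.44. Ddit4 was past the threshold without control replicate 1 and without control replicate 3, but not when any other single library was left out.

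Sgk1 encodes a kinase that regulates sodium channels and cell survival and that both corticosteroid receptors induce. It lies at 21882184 to 21999903 of chromosome 10. It measured 3042, 2378 and 1758 normalized counts in the controls and 2749, 3227 and 3221 in the knockouts. Knockout replicate 1 was below control replicate 1, so the groups overlapped. The log2 fold change was 0.36 ± 0.16 (SE), and it was 0.18 without control replicate 3, the lowest library.

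Tsc22d3 encodes GILZ, a leucine zipper protein that carries much of the anti-inflammatory effect of glucocorticoids. It lies on the X chromosome, at 140539528 to 140600659. Control libraries held 4818, 4379 and 4005 normalized counts, and knockout libraries 5647, 6360 and 4813. Only the lowest knockout and the highest control touched, at 4813 and 4818. The means were 4401 ± 407 and 5607 ± 774 (SD, n = 3), with a log2 fold change of 0.35 ± 0.11 (SE). It was not past the threshold with all 6 libraries, but was without knockout replicate 3.

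Per1 and Klf9, the other induced targets, leaned the opposite way. Per1, a repressor in the circadian clock that glucocorticoids switch on directly, lies at 69095217 to 69109960 of chromosome 11 and was at 11480, 11062 and 8663 normalized counts in the controls and 9480, 10627 and 7560 in the knockouts. The libraries of the genotypes were interleaved, with a log2 fold change of -0.17 ± 0.13 (SE). Klf9, a Krüppel-like transcription factor of the same protein family as KLF4, lies at 23141226 to 23168134 of chromosome 19. It was at 19080, 16557 and 19252 in the controls and 16210, 18119 and 13508 in the knockouts, again overlapping. Its log2 fold change was -0.20 ± 0.11 (SE). No lower call was made among the 10 genes, beside 0.657% of all genes called lower.

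The plot of fold change against abundance sets the pathway genes beside all others. Zbtb16 lay at 3.06 on the log2 scale, above the other pathway genes, and both receptors lay near 0.

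**Figure D2:**
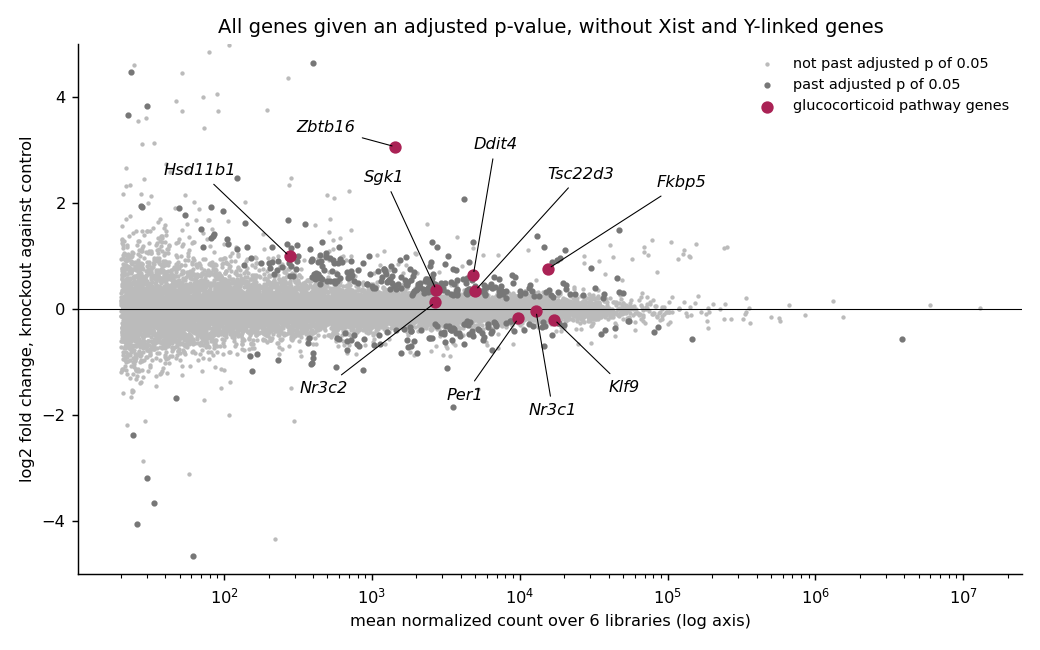
Log2 fold change of knockout against control (vertical axis) against mean normalized count over the 6 libraries (horizontal log axis) for genes given an adjusted p, without Xist and Y-linked genes, with genes past the threshold in dark grey and the 10 pathway genes in red. Zbtb16 is at 3.06, Nr3c1 and Nr3c2 are near 0, and 38 genes beyond 5 in either direction are outside the axis.

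To compare the genes with one another, counts were expressed as RPKM (CPM per kilobase of the gene's merged exons). In the controls Klf9 led with 36.3 ± 3.24 RPKM (SD, n = 3). Ddit4 at 20.8 ± 6.89, Per1 at 17.7 ± 3.01 and Nr3c1 at 16.2 ± 1.98 RPKM followed, each overlapping the next in range. Fkbp5 at 11.6 ± 2.2 and Tsc22d3 at 9.71 ± 1.18 RPKM overlapped below them, then Sgk1 at 4.69 ± 1.39 and Nr3c2 at 3.81 ± 0.428 RPKM. Zbtb16 at 0.56 ± 0.189 and Hsd11b1 at 0.418 ± 0.085 RPKM were the rarest and overlapped as well.

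The order was different in the knockouts. Ddit4 at 32.3 ± 0.557 RPKM overlapped Klf9 at 31.7 ± 4.06, and Fkbp5 at 19.8 ± 1.31 RPKM stood above Nr3c1 at 15.9 ± 0.623 without overlap. Zbtb16 at 4.69 ± 0.761 RPKM lay between Sgk1 at 6 ± 0.543 and Nr3c2 at 4.16 ± 0.226, and its libraries overlapped those of both. Hsd11b1 remained the rarest at 0.834 ± 0.398 RPKM, and Per1 and Tsc22d3 were at 15.7 ± 2.37 and 12.4 ± 1.49 RPKM. The plot of levels per kilobase sets the genotypes side by side.

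**Figure D3:**
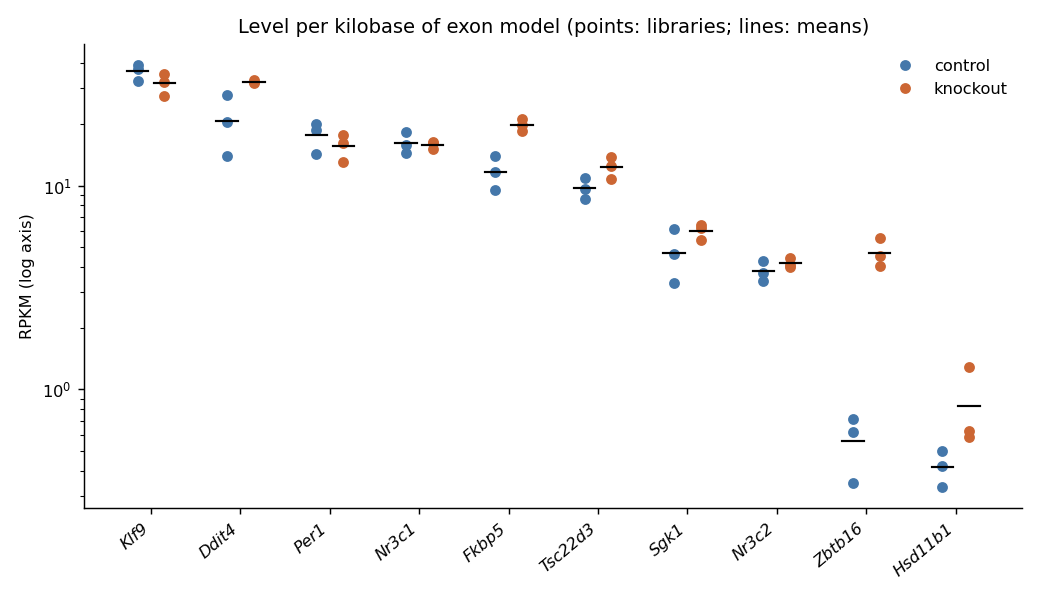
RPKM (log axis) of the 10 genes ordered by their control mean, with a point for each library, control and knockout side by side, and a bar at each group's mean. Klf9 leads in the controls with a mean of 36.3 RPKM, and Zbtb16 moves from 0.56 to 4.69 RPKM.

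The libraries of a genotype were ordered alike by some of the genes and not by others. Control replicate 1 was the highest control for 7 of the 10 genes, including both receptors. Control replicate 3 was the lowest control for 6 (Nr3c1, Nr3c2, Tsc22d3, Sgk1, Per1 and Ddit4) and the highest for 3 (Zbtb16, Fkbp5 and Klf9). Among the knockouts, replicate 2 was the highest for 6 genes and replicate 3 the lowest for 6, while Zbtb16 and Fkbp5 were highest in replicate 3. Zbtb16 and Fkbp5 thus ordered the libraries of each genotype alike, with control 2, control 1 and control 3 and then knockout 1, knockout 2 and knockout 3 from low to high. Hsd11b1 had the widest spread among the knockouts, with a coefficient of variation of 47.6%, and Zbtb16 among the controls, with 34.6%.

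Leaving out each library in turn moved the members unevenly, as the plot of those fits shows. Hsd11b1 ranged from 0.53 to 1.19, Ddit4 from 0.44 to 0.88 and Sgk1 from 0.18 to 0.57 on the log2 scale. Tsc22d3 ranged from 0.25 to 0.45, Per1 from -0.29 to -0.05, Klf9 from -0.30 to -0.09 and Nr3c2 from 0.07 to 0.19. The number of the 10 genes past the threshold was 4 without control replicate 1, with Sgk1 in place of Hsd11b1, where 2.49% of all genes were called. It was 2 without control replicate 2 (1.56% of all genes) and 3 without control replicate 3 (6.28%). Without knockout replicates 1, 2 and 3 in turn it was 2, 3 and 3, where 0.88%, 2.25% and 1.49% of all genes were called. With no filter on low counts Ddit4 was not past it, and with no independent filtering Hsd11b1 was not. Nothing is read from these counts either.

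**Figure D4:**
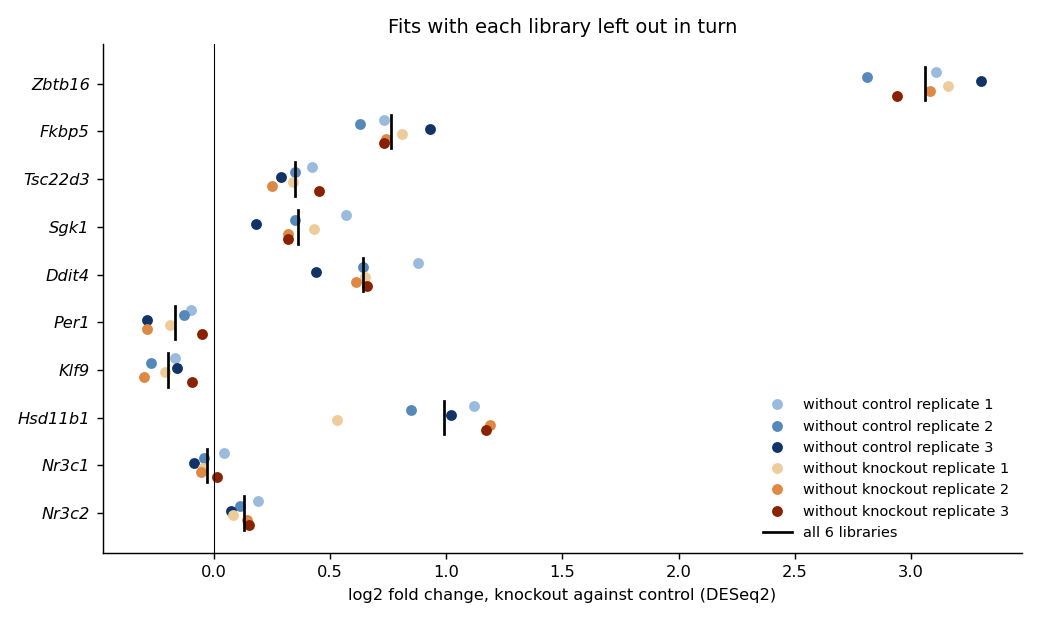
Log2 fold change of knockout against control (horizontal axis) for each of the 10 genes with all 6 libraries (black bar) and with each library left out (coloured points). Zbtb16 stays between 2.81 and 3.30 and Fkbp5 between 0.63 and 0.93, while Nr3c1 falls on both sides of 0.

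The glucocorticoid receptor binds DNA as a dimer at a palindrome, and this site was looked for near the start of each gene in RefSeq sequence (GRCm38.p6), in windows of 300 bases, 250 before and 50 after a start. Windows were matched by symbol for 8 of the 10 genes, all but Zbtb16 and Nr3c1, 16 windows in all. The motif was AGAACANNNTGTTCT, read with 12 fixed letters and a spacer of 3, and it is its own reverse complement, so a search of either strand finds the same places. The exact motif occurred in 3 of 32851 windows over the genome (0.00913%), and 1 of these 3 belongs to Sgk1, which has 6 windows. The 250 bases before that start of Sgk1 are shown because they hold the exact palindrome, with its fixed letters in capitals, 189 bases before the start (chr10:21993640-21993889, plus strand).
Sgk1: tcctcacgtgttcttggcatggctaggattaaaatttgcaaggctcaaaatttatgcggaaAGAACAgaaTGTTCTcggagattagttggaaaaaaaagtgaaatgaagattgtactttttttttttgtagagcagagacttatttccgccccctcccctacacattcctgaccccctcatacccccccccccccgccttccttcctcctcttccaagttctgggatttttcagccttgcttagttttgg

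The best match to the palindrome in the closest-matching window of each of the 8 genes is given to show how far the others are from it, each 5′ to 3′ with the letters that match in capitals.
Sgk1 (chr10:21993701-21993715, plus strand): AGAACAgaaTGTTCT
Hsd11b1 (chr1:193242485-193242499, minus strand): AGtAaAcatTGTcCa
Tsc22d3 (chrX:140548778-140548792, minus strand): cGAgCAgttTtTaCT
Ddit4 (chr10:59951960-59951974, minus strand): AGgAgAgaacGTTgc
Klf9 (chr19:23141040-23141054, plus strand): gGAACggaacGgTCg
Nr3c2 (chr8:76902169-76902183, plus strand): AcAgCgaccTGaaCT
Per1 (chr11:69098712-69098726, plus strand): gagACAtccTGaTCg
Fkbp5 (chr17:28486290-28486304, minus strand): tGAAgAggcgGagaT

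Sgk1 matched all 12 fixed letters, Hsd11b1 and Tsc22d3 matched 8, Nr3c2, Per1, Klf9 and Ddit4 matched 7, and Fkbp5 matched 6. Up to 2 mismatches were found in 2 of the 16 windows, both of Sgk1, and in 1.84% of all windows. One arm of the palindrome, AGAACA, which every exact palindrome also holds, on either strand, was in 4 of the 16 windows (Sgk1 and Tsc22d3) and in 19% of all windows. The letters CACCC, the core that Krüppel-like factors such as KLF4 recognise, were on either strand in 9 of the 16 windows (56.2%) and in 57.5% of all windows. The gene with the exact palindrome, Sgk1, had a log2 fold change of 0.36, while Fkbp5, the poorest match, had 0.76. These matches describe the letters of short windows and say nothing of binding, which for this receptor is often far from the start.

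Beyond the 10 genes, 32 further glucocorticoid-induced genes from general knowledge of the pathway were followed. This list too was drawn up with earlier results of these data known. Of its 30 genes given an adjusted p, 10 rose in the knockouts and 0 fell past the DESeq2 threshold, where 1.53% of all genes were called higher. The list had 24 positive and 6 negative log2 fold changes with a median of 0.20, beside -0.01 over all genes. For 14 of the 30 every knockout library was above every control, beside 9.06% of all genes, and for 0 every one was below, beside 8.23%. The 8 called genes with the largest fold changes were Fam107a, Angptl4, Sult1a1, Mt2, Errfi1, Tat, Klf15 and Mt1. The count was 6 without control replicate 1 and 6 without knockout replicate 1, and in edgeR's quasi-likelihood test, which called 0.115% of all genes, it was 1, Mt2.

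The metallothionein genes Mt1 and Mt2, neighbours on chromosome 8 that bind zinc and copper ions, rose together. Mt2 went from 7303, 7029 and 6474 normalized counts in the controls to 10438, 9712 and 12137 in the knockouts, with a log2 fold change of 0.63 ± 0.10 (SE) and a DESeq2 adjusted p of 6.64e-08. In edgeR its adjusted p was 0.0496. Gm45774 overlaps Mt2 on the other strand, and with the strand setting unknown the counts of Mt2 are uncertain, as are those of Tgm2, Dusp1, Il1b, Arntl, Dbp, Ddit3, Gls2 and 9330159M07Rik, which also have overlapping genes. Mt1 rose from 16455 ± 1025 to 22983 ± 2647 (SD, n = 3), a log2 fold change of 0.48 ± 0.10 with a DESeq2 adjusted p of 0.000147. The edgeR adjusted p of Mt1 was 0.166. Both genes had all knockout libraries above all controls.

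Fam107a, a stress-responsive actin-bundling protein, rose from 909.5, 881 and 1400 normalized counts to 1628, 2250 and 2165, a log2 fold change of 0.92 ± 0.18 (SE) with a DESeq2 adjusted p of 0.00013. The third control was the highest of its group and still below every knockout. Errfi1, a feedback inhibitor of the EGF receptor, rose from 7043, 5795 and 4792 to 8335, 8672 and 9071, by 0.56 ± 0.12 with a DESeq2 adjusted p of 0.001. Sult1a1, a phenol sulfotransferase, rose by 0.65 ± 0.14 with a DESeq2 adjusted p of 0.000948, and an exon of Sgf29 overlaps it on the opposite strand. Fam107a, Sult1a1, Errfi1, Mt1 and Mt2 were called in each of the 6 fits that left out a library.

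Genes of lipid, amino acid and glucose metabolism were among the others. Angptl4, an inhibitor of lipoprotein lipase, rose from 422 ± 83.7 to 766 ± 149 (SD, n = 3), a log2 fold change of 0.86 ± 0.19 (SE) with a DESeq2 adjusted p of 0.00149. Klf15, a Krüppel-like regulator of amino acid use, rose by 0.51 ± 0.14 with a DESeq2 adjusted p of 0.0177. Tat, tyrosine aminotransferase and a classic glucocorticoid target of the liver, was at 2984, 2931 and 3227 in the controls and 5744, 4140 and 3456 in the knockouts, a rise of 0.55 ± 0.15 with a DESeq2 adjusted p of 0.0239. Its order among the knockouts, replicate 1 above 2 above 3, was also that of Alb at 51331, 1743 and 122. Tat kept its call in 1 of the 6 fits that left out a library and lost it without knockout replicate 1, among others, Klf15 kept it in 2, and Angptl4 lost it without knockout replicate 1 and without knockout replicate 3. The remaining called genes, named here after their values were seen, were Tgm2 at 0.36 ± 0.09 and Pdk4 at 0.27 ± 0.08, each called in 2 of the 6 fits that left out a library. Pck1, which makes glucose from amino acids in liver, had no adjusted p. It was at 11.9, 1.92 and 0 in the controls and 3141, 99 and 14 in the knockouts, again in the order of Alb. The part of hepatocyte RNA in the differences of Tat and Pck1 was not tested.

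Several well-known targets did not pass. Per2, a partner of Per1 in the clock, had a log2 fold change of -0.32 ± 0.16 (SE), and Foxo3 had -0.34 ± 0.12. Dusp1, a phosphatase that quenches stress kinases, stood at 0.09 ± 0.14 and Nfkbia, the inhibitor of NF-kappaB, at 0.25 ± 0.12. These 4 were also named after their values were seen. Trim63, a muscle ubiquitin ligase, had 0 counts in all 6 libraries, against a floor of 3 counts per library.

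The palindrome was also sought in this wider list, of which 26 genes had a window. With up to 2 mismatches it was in 3 of the 26 genes, beside 567 of the 27025 genes with a window (2.1%). These 3 sites are printed with matching letters in capitals because 2 of the 3 genes rose.
Fam107a (chr14:8309884-8309898, minus strand): tGgACAtggTGTTCT
Sult1a1 (chr7:126676438-126676452, minus strand): AGAACAgccaGTcCT
Trim63 (chr4:134314911-134314925, plus strand): tGAACAgtcTGTTCT

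Trim63 matched 11 of the 12 letters and was not detected, and Fam107a and Sult1a1 matched 10. Over all genes outside the 10 with a window and an adjusted p, 5 of the 157 with up to 2 mismatches were called higher (3.18%), against 200 of all 12294 (1.63%). The 5 were C1qb, Fam107a, Gjb1, Limd2 and Sult1a1, named here because they were so few and after their values were seen, and the difference in share was not tested. With up to 1 mismatch, 0 of 10 genes were called higher. The median log2 fold change was -0.00 with up to 2 mismatches and -0.01 over all 12294.

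Genes that glucocorticoids are known to repress gave no calls. Of 12, 8 were given an adjusted p, and 0 passed the threshold in DESeq2 or edgeR, beside 2.19% and 0.115% of all genes. Of the 11 in the fit, 1 had an unadjusted DESeq2 p under 0.05, beside 2269 of all 25119. The median log2 fold change of the 8 was 0.21. The inflammatory cytokine gene Il1b was at 73.4, 132 and 57.3 normalized counts in the controls and 60.4, 30.9 and 43.9 in the knockouts, a log2 fold change of -0.96 ± 0.44 (SE). The chemokine gene Ccl2 was at 0.94 ± 0.60 on the same scale, and both were named after their values were seen. Il6 and Crh had 0 counts in at least 1 library.

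The proteins that hold and assist the receptor gave no calls. Of 18 genes of chaperones, co-chaperones and coregulators, 0 passed in DESeq2 or edgeR, beside 2.19% and 0.115% of all genes. An unadjusted DESeq2 p under 0.05 was found for 2, beside 2269 of the 25119 genes in the fit. The median log2 fold change was -0.02. For 4 of the 18, all of the chaperone complex, every knockout library was below every control. They were Hsp90aa1 at -0.19 ± 0.08 (SE), Fkbp4 at -0.18 ± 0.09, Stip1 at -0.18 ± 0.08 and Ptges3 at -0.14 ± 0.08. The share of all genes with every knockout library below every control was 8.23%, as given above. Other chaperone and co-chaperone genes of the list overlapped between genotypes: Hsp90ab1 at -0.01 ± 0.06, Hspa8 at -0.14 ± 0.08, Stub1 at -0.09 ± 0.07 and Bag1 at -0.05 ± 0.08. Fkbp4 encodes the co-chaperone that competes with the Fkbp5 product for the complex, and promotes hormone binding.

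Genes of steroid metabolism and the other steroid receptors gave no calls either. Of 10 genes that activate, inactivate, carry or make steroids 4 were given an adjusted p. In DESeq2 or edgeR 0 passed, beside 2.19% and 0.115% of all genes. Of the 8 in the fit, 2 had an unadjusted DESeq2 p under 0.05, beside 2269 of all 25119. H6pd supplies the cofactor for the Hsd11b1 enzyme. It was at 4912, 4892 and 5559 normalized counts in the controls and 6579, 5614 and 6453 in the knockouts, with a log2 fold change of 0.28 ± 0.09 (SE) and a DESeq2 adjusted p of 0.09. Hsd11b2, which inactivates corticosterone, was between 2.12 and 27.9 in single libraries. Pgr had means of 46.5 and 39.7, Esr1 of 123 and 117 and Esr2 of 2.56 and 3.38 normalized counts, and 0 of these 3 receptor genes passed in DESeq2 or edgeR or had an unadjusted DESeq2 p under 0.05.

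Some of the pathway genes also answer to the clock, to acute handling and to cellular stress, and lists for these were followed beside them. Of 15 clock genes 0 passed in DESeq2 or edgeR, beside 2.19% and 0.115% of all genes, and the median log2 fold change was -0.13. Of the 15, 2 had an unadjusted DESeq2 p under 0.05, beside 2269 of the 25119 genes in the fit. The clock output gene Dbp held 6909, 4386 and 1595 normalized counts in the controls, in replicate order, and 3254, 2897 and 2082 in the knockouts, and Arntl, which peaks in the opposite phase, held 1217, 1700 and 2620 and then 1465, 1764 and 1991. The controls thus spanned a wider range of both than the knockouts did, with control replicate 3, the lowest control for Per1, at the lowest Dbp and the highest Arntl. The part of clock phase in the values of Per1 was not tested.

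Among 10 immediate early and heat shock genes, Fosb rose by 0.51 ± 0.12 (SE; DESeq2 adjusted p of 0.00286) and Dnajb1, an HSP40 co-chaperone, had a log2 fold change of -0.50 ± 0.12 (DESeq2 adjusted p of 0.00261), beside 1.53% of all genes called higher and 0.657% called lower. Egr1, named after its values were seen, was at 25627, 24983 and 15728 normalized counts in the controls and 23674, 27798 and 23295 in the knockouts. It was lowest in control replicate 3, which was also the lowest library for Sgk1 and Ddit4. The part of handling in the values of Sgk1 and Ddit4 was not tested. Of 6 genes of the integrated stress response 2 rose past the DESeq2 threshold, beside 1.53% of all genes called higher, and the median was 0.28. Asns, asparagine synthetase, rose from 7307, 6542 and 8790 to 10522, 10621 and 10522, by 0.48 ± 0.11 with a DESeq2 adjusted p of 0.000904, and Trib3, a pseudokinase, rose by 0.90 ± 0.26 with a DESeq2 adjusted p of 0.029. In edgeR 0 genes of the immediate early and stress lists passed, with adjusted p of 0.187 for Fosb, 0.196 for Dnajb1, 0.172 for Asns and 0.333 for Trib3. The transcription factor genes of that response, Atf4 and Ddit3, had log2 fold changes of -0.01 ± 0.08 and 0.02 ± 0.11. Ddit4 answers to this response as well as to glucocorticoids, and the part of either in its difference was not tested.

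**Figure D5:**
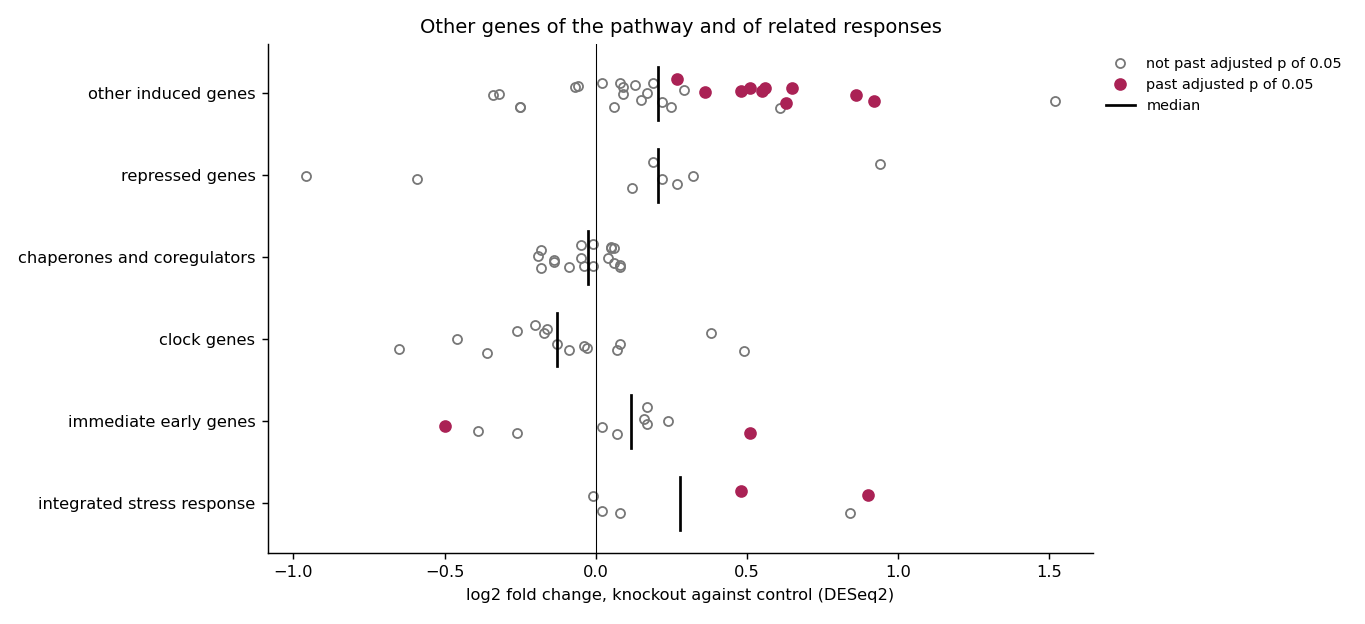
Log2 fold change of knockout against control (horizontal axis) for each gene given an adjusted p in lists beside the 10 pathway genes. The lists drawn are other induced genes, repressed genes, chaperones and coregulators, clock genes, immediate early genes and the integrated stress response. Filled points are past a DESeq2 adjusted p of 0.05, and a bar marks each list's median. Of the other induced genes 10 are filled, all to the right of 0, and the receptor's chaperones and coregulators lie around 0 with none filled.

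Finally, the genes whose pattern was most like that of the targets were sought among 15801 genes with a mean of at least 50 normalized counts, by the root mean square difference over the 6 libraries of log2(normalized count + 1) centred on the control mean. The mean of the 7 induced targets was at 0.18, -0.12 and -0.06 in the controls and 0.65, 0.81 and 0.65 in the knockouts, a profile to which Zbtb16 gave the most. The nearest genes were Gcnt1 at a difference of 0.040, Map3k6 at 0.065, Sult1a1 at 0.090, Igfbp6 at 0.092 and 9330159M07Rik at 0.11. Gcnt1, a glycosyltransferase gene, had means of 314 ± 33.4 and 495 ± 24.4 (SD, n = 3). Zbtb16 alone stood farther from every other gene: the nearest, Fyb2, was at 0.56, with means of 37.4 ± 10.1 and 206 ± 16.2. Gm8116 at 1.01, C3 at 1.13, Tlr8 at 1.21 and Gls2 at 1.21 came next. The complement gene C3 had a control mean of 1612 ± 220.3 and knockout values of 12483, 3453 and 4521, highest in replicate 1, the library with the most Alb. The liver-type glutaminase gene Gls2 had means of 129 ± 12.5 and 411 ± 150.1. These genes were chosen by the likeness itself, so it is a description without a test.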

How the data were processed

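Whole-islet RNA of 6 libraries, 3 per genotype, was analysed from 1 table of read counts per gene. The deposited counts are raw and not normalized; per the submitters' processing notes, FastQC, STAR, featureCounts, DESeq2 and mm10 were used, and the name of the deposited table records trimming with cutadapt. The strand setting is not given in the sources used here. All 55536 gene identifiers and symbols matched GENCODE M21 (GRCm38), the source of coordinates and exon lengths.

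As in the design text, DESeq2 1.42.0 (R 4.3.3) was run without covariates on genes with at least 10 counts in total: 25119 entered the fit and 17797 were given an adjusted p, with a Benjamini-Hochberg threshold of 0.05. It called 389 genes, 272 higher and 117 lower. The script was tested on simulated data. No 2 libraries were near-identical: chi-square over degrees of freedom was 40 to 120 within genotypes. RPKM and CPM were computed from counts and library totals. Where a symbol has several entries, the one with the most counts was used.

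The 10 genes and all lists were chosen with earlier results of these data known. Named genes are those 10, checks of labels and tissue, called genes of each pathway list (up to 8, by absolute log2 fold change), other steroid receptors (1 gene of that list is not reported here) and the 5 genes most like each profile; every other gene named was chosen after its values were seen. Alternatives were edgeR 4.0.16, TMM factors, other count filters, an adjusted p of 0.1, no independent filtering, the replicate block and each library left out.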

Additional observations from a re-analysis of the deposited data

How the results depend on the processing

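Of 120 values of the 10 genes under 12 alternatives, 117 kept their sign and stayed within 1 SD. Nr3c1 turned to 0.044 without control replicate 1 and 0.013 without knockout replicate 3, in a leave-one-out range of -0.087 to 0.044. Fkbp5 moved to 0.98 with control replicate 3 and knockout replicate 1 both left out, an alternative chosen after seeing the data that called 415 genes and 11 of the wider list.

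The 389 genes called became 29 in edgeR, with 82.8% higher against 69.9%, and 614 at an adjusted p of 0.1. Leaving out single libraries gave 153 (without knockout replicate 1) to 952 (without control replicate 3, with 60.5% higher). The 10 calls of the wider induced list became 1 in edgeR and 6 to 12 with single libraries left out: 6 without control replicate 1 or knockout replicate 1, and 12 without control replicate 3, where Per2 was lower. Without control replicate 2, Cebpd and Foxo3 were lower. The cause was not tested.

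Replicate numbers did not pair the libraries: correlations of the deviations of same-numbered libraries over 15811 genes were -0.0482, -0.0587 and 0.0105. With the replicate block, 405 genes were called, 281 of them shared with the 389, with 9 of the wider list and 5 of the 10 genes, Tsc22d3 being added. Depth limits genes near the floor of 3 counts, such as Il6 and Esr2.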
